A study of Arabidopsis thaliana with 20 samples.

Results

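The small RNA libraries of *cer7* mutants were set directly against those of *rst1* mutants, to ask at which genes the loss of the exosome core subunit RRP45B/CER7 left more, or fewer, small RNAs than the loss of RST1. The comparison took every *cer7* and every *rst1* library by its label, which gave 11 of the 20 libraries of the study: 5 of *cer7* (3 of cer7-gabi and 2 of cer7-sail) and 6 of *rst1* (3 each of rst1-2 and rst1-3). The 6 *ripr* libraries and the 3 libraries of wild-type Col-0 entered the same fit and are given beside the results. The values were counts of reads of 21 and 22 nt on each of 27415 genes, and 2916 genes with enough reads were tested.

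The libraries came from closed flower buds of *Arabidopsis thaliana* grown on soil at 20 °C, for 3 weeks with 12 h and then 3 weeks with 16 h of light per day. By the labels each library pooled the buds of 4 plants, and the replicates of a genotype were raised on separate dates in separate chambers. All mutants were in the Col-0 background. The cer7-gabi line, called *cer7-3* in the study's methods, and the cer7-sail line carry insertions in *CER7*, and rst1-2 and rst1-3 carry T-DNA insertions in *RST1*. Some limits come with these lines: the study raises the possibility that *cer7-3* is a knockdown with some CER7 protein left, and Col-0 itself lacks a fully functional SOV, a cytoplasmic exoribonuclease that also degrades RNA from the 3′ end. *Arabidopsis* has a second gene for the RRP45 subunit, *RRP45A*, which no label names as mutated in these lines.

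The RNA exosome is a ring of core subunits that degrades RNA from the 3′ end in the nucleus and in the cytoplasm. In the cytoplasm it works with the Ski complex, a helicase assembly that feeds mRNA into it, and RST1 and its partner RIPR are proteins that tie the plant exosome to the Ski complex. When aberrant mRNAs such as decapped, deadenylated or miRNA-cleaved transcripts are not removed fast enough, RNA-dependent RNA polymerases can copy them into double-stranded RNA, which Dicer enzymes cut into siRNAs of 21 and 22 nt.

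The deposited counts summed to between 305475 and 522464 in the *cer7* libraries, 192747 to 296842 in the *rst1* libraries, 193616 to 371040 in the *ripr* libraries and 203245 to 230727 in the wild type. All *cer7* totals were thus above all *rst1* totals, and levels below are CPM, the usual scaling of counts to a common library size, here on the tested genes after TMM normalization, which sets the libraries to one scale on the assumption that most genes do not move. Replicate libraries of an allele differed by more than counting noise in all 10 pairs of *cer7* and *rst1* libraries. Chi-square per degree of freedom was 4.21 to 11.8. The p-values rest on a spread shared by the 4 groups of all 20 libraries, with the alleles of a mutant pooled. The *ripr* and wild-type libraries thus help to set it. Small RNAs on *CER7* and *RST1* were too few to check the labels: *CER7* had 1 to 8 counts in each *cer7* library and 2 to 6 in each *rst1* library, and *RST1* had 2 to 5 counts in each *cer7* library, 1 to 5 in each rst1-2 library and 9 to 23 in each rst1-3 library. Reads had no molecular identifiers, and intervals on counts therefore cover counting error only.

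The direct comparison was lopsided. Calls required an adjusted p under 0.01 and a change of more than 1 on the log2 scale, up or down, from the quasi-likelihood test of edgeR, adjusted by Benjamini-Hochberg over the 2916 genes. By this rule 61 loci were higher in *cer7* than in *rst1* (2.09% of the genes tested) and 7 were lower (0.24%), 2.33% in either direction, while the median log2 fold change of all genes was 0.01 and 1489 of the 2916 were positive. The 61 loci held between 19.4 and 24.9% of the counts in each *cer7* library, against 1.20 to 3.08% in each *rst1* library and 0.135 to 0.255% in the wild type. A single gene, *XTH9*, made up most of this: its share was 13.9 to 19.7% in the *cer7* libraries and 0.663 to 2.34% in the *rst1* libraries, and the other higher loci took 2.04 to 7.12% against 0.535 to 0.742%. The balance of calls depended on the scaling. With library totals alone the median of all genes moved to −0.31, and 42 loci were called higher and 49 lower. Of these, 41 were among the 61 and 7 were the 7 lower loci.

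**Figure D1:**
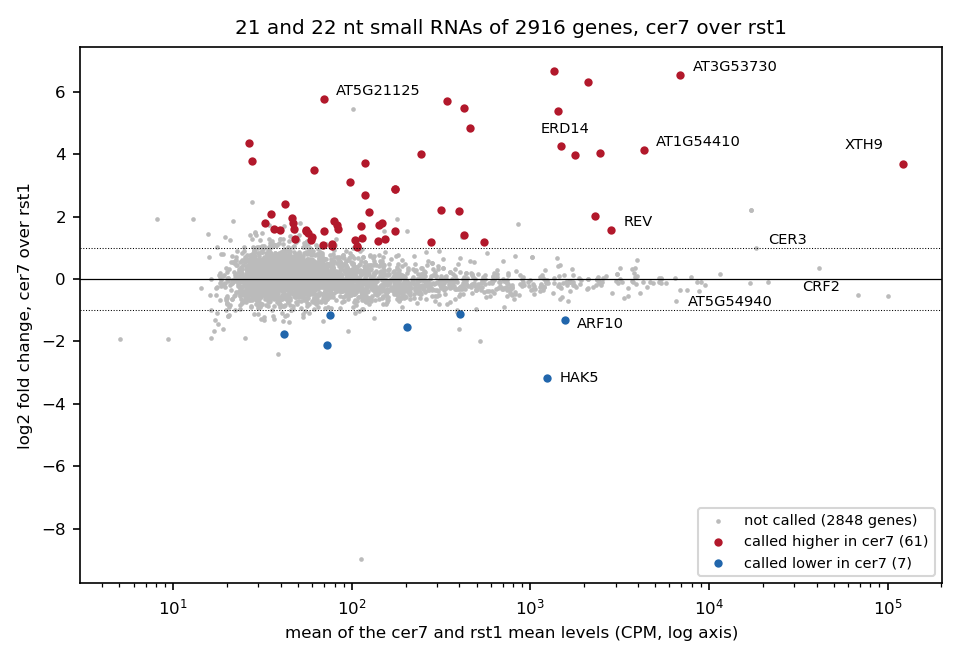
Each point is 1 of the 2916 genes tested, with the mean of its *cer7* and *rst1* levels on the x axis (CPM, log axis) and its log2 fold change of *cer7* over *rst1* on the y axis; red points are the 61 loci called higher in *cer7*, blue points the 7 called lower, grey points the genes not called, and dotted lines mark −1 and 1. *XTH9* stands far to the right of the other red points. *CRF2* and *AT5G54940*, named because they were abundant and alike in both mutants, lie near 0 at similar heights to most genes.

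Set beside the wild type, most of the 61 loci were those where small RNAs rose in *cer7* and did not pass the test in *rst1*. The same 3 wild-type libraries serve both mutants, and the *cer7* and *rst1* libraries are those of the direct comparison, so these counts describe the calls and are no independent check of them. Small RNAs were higher than in the wild type at 510 genes in *cer7* (17.5%) and at 289 in *rst1* (9.91%), and lower at 67 (2.3%) and at 19 (0.652%) in the same order. Of the 61 loci, 60 were among the 510 and 17 among the 289, and the other 44 were not called in *rst1*. The level in *rst1* was a median of 26.9% of that in *cer7*. At 17 of the 61 the fitted *rst1* level lay within 2-fold of the wild type. The mean *rst1* level was more than 2-fold above the wild type at 43 of the 61 (70.5%), against 22.4% of all genes tested. Not being called in *rst1* thus does not mean unchanged. At the 240 genes called in *cer7* and not in *rst1*, the direct comparison called 43 higher and 0 lower, with a median log2 fold change of 0.70. At the 270 genes called in both, it called 17 higher and 1 lower, with a median of 0.32, and 172 of the 270 (63.7%) lay within 0.5 of 0, against 2118 of all 2916 genes (72.6%). The 19 genes called in *rst1* only held no call, with a median of −0.49.

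At 59 of the 61 higher loci (96.7%) the mean *ripr* level was within 2-fold of the mean *rst1* level, as it was at 98.3% of all genes, so this is not particular to these loci. With 1 allele of a mutant alone, 43 of the 61 were called with cer7-gabi, 37 with cer7-sail, 37 with rst1-2 and 22 with rst1-3. These were contrasts from the fit of 7 groups over all 20 libraries, each against both alleles of the other mutant. The alleles differed from each other at 10 of the 2916 genes in *cer7* (0.343%) and at 6 in *rst1* (0.206%). As a second view of the data, every *cer7* library was above every *rst1* library at 96 genes (3.29%) and below at 28 (0.96%).

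Xyloglucan endotransglucosylase/hydrolases, or XTHs, cut and rejoin the xyloglucan chains that tether cellulose in the plant cell wall. Of the 32 genes of this family on the list, 7 were tested, 6 were called higher in *cer7* and 0 lower, and the median log2 fold change was 3.12. Over all genes tested the shares were 2.09% and 0.24%, for this and later lists. *TCH4* had enough reads for the test in *cer7* only, with 12 to 28 counts there and 0 to 2 in every other library. Members of other lists could enter in the same way, so counts of called members are descriptions and no test. *XTH9* (*AT4G03210*, TAIR10.1 chromosome 4, 1415617 to 1417444, plus strand) had 221308, 263241 and 241243 CPM in the 3 cer7-gabi libraries and 171161 and 232550.0 CPM in the 2 cer7-sail libraries, against 6874 to 24585 CPM (median 18622) in the *rst1* libraries. Every *cer7* library was thus far above every *rst1* library, and *rst1* in turn was above the wild type, which had a mean of 438 CPM. The log2 fold change of *cer7* over *rst1* was 3.68 (SE 0.312, adjusted p = 5.51e-07, edgeR), while that of *rst1* over the wild type was 5.32 (adjusted p = 1.73e-07). *XTH9* is thus a locus raised in both mutants, to unequal levels.

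The smaller *XTH* loci stood in different relations to the wild type. *XTH4* (*AT2G06850*, chromosome 2, 2763449 to 2765743, plus strand) had 147, 171 and 196 CPM in cer7-gabi and 153 and 213 CPM in cer7-sail, against 11.2 to 29.9 CPM (median 18.8) in *rst1* and a mean of 30.4 CPM in the wild type. Its log2 fold change was 3.12 (SE 0.276, adjusted p = 1.13e-09, edgeR), and that of *rst1* over the wild type was −0.60 and did not pass the test. *XTH16* (*AT3G23730*, chromosome 3, 8550037 to 8551403, plus strand) had 518, 547 and 515 CPM in cer7-gabi and 326 and 379 CPM in cer7-sail, against 3.52 to 60.1 CPM (median 26.1) in *rst1* and a mean of 6.34 CPM in the wild type (log2 fold change 4.00, SE 0.331, adjusted p = 1.13e-09, and 2.08 for *rst1* over the wild type, adjusted p = 0.0435, which was not called). At both genes the groups were well apart. At *XTH16* every cer7-gabi library was above both cer7-sail libraries.

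*TCH4* (*AT5G57560*, chromosome 5, 23307006 to 23308680, minus strand), an XTH gene known for its rapid induction by touch, had 43.1, 33.3 and 76.3 CPM in cer7-gabi and 48.3 and 55.3 CPM in cer7-sail, against 0 to 4.26 CPM (median 1.76) in *rst1*. These are few reads, 81 counts in all *cer7* libraries and 3 in all *rst1* libraries, and the ratio of the summed levels was 24.8 (exact 95% interval 8.18 to 123). *XTH24* had 46.8 to 106 CPM in *cer7* and 7.48 to 17.1 CPM in *rst1*, with a wild-type mean of 1.47 CPM (log2 fold change 2.41, adjusted p = 0.000888, edgeR), and *XTH6* had 54.6 to 90.0 CPM in *cer7* and 11.2 to 34.1 CPM in *rst1*, with a wild-type mean of 33.1 CPM (1.95, adjusted p = 3.6e-05). Neither pair of groups overlapped. The 1 tested member that was not called, *XTH26*, had 14.4, 5.12 and 5.45 CPM in cer7-gabi and 32.2 and 8.51 CPM in cer7-sail, against 5.60 to 142 CPM in *rst1* (log2 fold change −2.40, adjusted p = 0.0346), and its 2 *rst1* alleles differed from each other.

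Other genes of the cell wall and surface were among the higher loci, a grouping made after the values were seen. *EXPA4* (*AT2G39700*, chromosome 2, 16543832 to 16545746, minus strand), an expansin that loosens the wall, had 69.0, 164 and 46.4 CPM in cer7-gabi and 169 and 119 CPM in cer7-sail, against 0 to 16.0 CPM (median 11.4) in *rst1* (log2 fold change 3.49, SE 0.416, adjusted p = 5.51e-07, edgeR). *EXO*, the growth-promoting EXORDIUM protein, had 90.0 to 166 CPM in *cer7* and 5.60 to 61.3 CPM in *rst1* (1.74, adjusted p = 0.000241). The arabinogalactan proteins are cell surface proteoglycans: 10 of the 59 on the list were tested, 2 were higher (*AGP21*, 1.81, and *AGP15*, 1.06) and 0 lower, with a median of 0.64. *GASA6*, a small gibberellin-regulated secreted protein, had a log2 fold change of 1.53 (adjusted p = 0.000677). *AGP21* and *GASA6* each overlap another gene in the annotation. *QUA3*, a putative pectin methyltransferase, was the call nearest to the threshold (1.60, adjusted p = 0.00994), its groups overlapped, and it was lost when any 1 of 9 of the 11 libraries was left out.

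Histone H4, a core protein of the nucleosome, is encoded by 8 genes of nearly the same protein, and all 8 were called higher in *cer7*, with a median log2 fold change of 5.59 and a range of 4.05 to 6.65. The coding sequences of these genes are 312 bases long and share 78.8 to 98.1% of their bases over the 28 pairs. The first 60 coding bases are shown because reads of 21 or 22 nt can be placed on 1 copy only where the copies differ; capitals mark the bases that depart from the most common base of the 8 at that position, and where 2 bases are equally common the first in the alphabet was taken. They come from the TAIR10.1 assembly and are written 5′ to 3′ in the sense of the gene.
*AT1G07660* (chr1:2369212-2369271, plus strand): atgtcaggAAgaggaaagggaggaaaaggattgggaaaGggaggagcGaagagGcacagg
*AT1G07820* (chr1:2421687-2421746, minus strand): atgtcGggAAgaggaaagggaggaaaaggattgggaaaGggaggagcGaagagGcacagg
*AT2G28740* (chr2:12329895-12329954, minus strand): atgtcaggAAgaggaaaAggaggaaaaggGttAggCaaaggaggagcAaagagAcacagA
*AT3G45930* (chr3:16883390-16883449, plus strand): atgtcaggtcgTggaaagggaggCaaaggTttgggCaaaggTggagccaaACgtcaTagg
*AT3G46320* (chr3:17020295-17020354, minus strand): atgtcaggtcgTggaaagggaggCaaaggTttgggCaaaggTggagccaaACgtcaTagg
*AT3G53730* (chr3:19912911-19912970, minus strand): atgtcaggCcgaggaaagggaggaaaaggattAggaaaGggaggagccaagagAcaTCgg
*AT5G59690* (chr5:24051649-24051708, plus strand): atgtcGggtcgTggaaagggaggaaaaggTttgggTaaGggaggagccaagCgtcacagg
*AT5G59970* (chr5:24146604-24146663, minus strand): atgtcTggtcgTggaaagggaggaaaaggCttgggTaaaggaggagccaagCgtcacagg

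*AT3G45930* and *AT3G46320* do not differ over these bases, and *AT1G07660* and *AT1G07820* differ at a single one. The share of a gene's 21-mers that occur at only 1 place in the genome was between 51.5 and 98.7% over the 8 genes, so the counts of a single copy are uncertain and the family is best read as a whole. *AT3G53730* (chromosome 3, 19912385 to 19913515, minus strand), the copy with the highest share, had 313, 13867 and 1259.8 CPM in cer7-gabi and 28204 and 24333 CPM in cer7-sail, against 98.1 to 220.4 CPM (median 140.1) in *rst1* and a mean of 37.2 CPM in the wild type. The *cer7* libraries were spread widely, with cer7-gabi replicates 1 and 3 far below the other 3, yet all were above *rst1* (log2 fold change 6.52, SE 0.91, adjusted p = 0.000239, edgeR). *AT1G07820* had 368, 5341 and 728 CPM in cer7-gabi and 8598 and 8048 CPM in cer7-sail, against 224 to 325 CPM in *rst1* (4.05, SE 0.611, adjusted p = 0.000527).

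The same libraries were low at every copy. Summed over the 8 genes, the level was 1035, 32585 and 2607 CPM in cer7-gabi replicates 1, 2 and 3 and 61792 and 52898 CPM in cer7-sail replicates 1 and 3, against 495 to 809 CPM in the *rst1* libraries. The lowest *cer7* library was thus little above the highest *rst1* library, and at 3 of the 8 genes the groups overlapped. At all 8 genes cer7-gabi replicates 1 and 3 were the lowest, with the other 3 *cer7* libraries more than 3-fold above both. No other gene of the 2916 had that pattern, and these libraries were the lowest 2 at 278 genes (9.53%) and at 6 of the 53 other higher loci (11.3%). The pattern was drawn from the H4 genes themselves, whose copies can share reads, so this count is a description and no test. *AT5G57123* was among those 6, at 822 and 1568 CPM in these libraries and 3701 to 6226 CPM in the other *cer7* libraries. The difference between the *cer7* alleles did not pass the test at any copy (log2 fold change of cer7-gabi over cer7-sail −2.35 to −1.81, adjusted p 0.241 to 0.414). The calls depended on the fit and on the alleles compared. In an edgeR fit of the *cer7* and *rst1* libraries alone 0 of the 8 were called. Log2 fold changes there were 4.00 to 6.60 and adjusted p 0.0120 to 0.0658 (edgeR). DESeq2 called all 8. In contrasts from the fit of 7 groups over all 20 libraries, 4 of the 8 were called with cer7-gabi alone and 8 with cer7-sail alone. With rst1-2 alone 4 were called and with rst1-3 alone 2. *AT3G46320*, with the smallest margin, was also lost when any 1 of 7 libraries was left out.

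**Figure D2:**
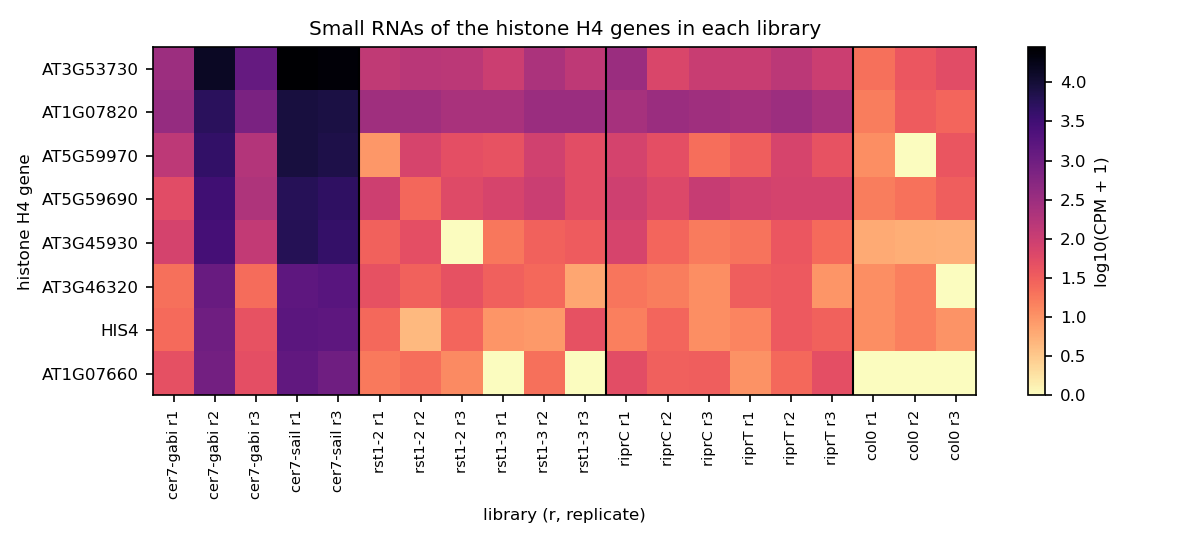
Heat map of the 8 histone H4 genes (rows) in each library (columns, grouped as *cer7*, *rst1*, *ripr* and wild type), coloured by log10 of the level in CPM plus 1. The cer7-gabi replicate 2 and both cer7-sail columns are dark at every gene, and cer7-gabi replicates 1 and 3 are close to the *rst1* colours at several genes, with summed levels of 1035 and 2607 CPM against 495 to 809 CPM in *rst1*.

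The other histones moved less. Of 8 histone H3 genes tested, 2 were higher and 0 lower, with a median of 0.90. *AT5G10400* had 54.6, 79.3 and 51.8 CPM in cer7-gabi and 76.4 and 157 CPM in cer7-sail, against 5.60 to 40.1 CPM in *rst1* (log2 fold change 1.58, adjusted p = 0.00521, edgeR). *AT5G65360* had 80.8 to 136 CPM in *cer7* and 39.2 to 72.5 CPM in *rst1* (1.05, adjusted p = 0.00427). Of 25 genes for histones H1, H2A and H2B, 10 were tested and 0 were called, with a median of 1.11 and all 10 positive.

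Dehydrins are hydrophilic proteins that plants make under drought and cold. Of 10 on the list 4 were tested, 2 were called higher and 0 lower, and the median was 2.81. *ERD14* (*AT1G76180*, chromosome 1, 28586663 to 28587931, minus strand) had 1975, 1949 and 4210.1 CPM in cer7-gabi and 1658 and 4365 CPM in cer7-sail, against 42.3 to 236 CPM (median 150.2) in *rst1* (log2 fold change 4.27, SE 0.4, adjusted p = 1.35e-06, edgeR). *AT1G54410*, a small dehydrin gene (chromosome 1, 20309473 to 20310850, minus strand), had 7823, 7488 and 9865 CPM in cer7-gabi and 3923 and 11677 CPM in cer7-sail, against 396 to 549 CPM (median 438) in *rst1* (4.14, SE 0.328, adjusted p = 1.07e-07). At both genes the lowest *cer7* library was more than 5-fold above the highest *rst1* library. The wild-type libraries of *AT1G54410* were spread, at 184, 177 and 709 CPM, with *rst1* above the first 2 of them and below the last. *ERD10* (1.26, adjusted p = 0.0173) and *COR47* (1.47, adjusted p = 0.0954) were not called.

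Cytosolic HSP90 chaperones, which fold signalling proteins and ARGONAUTE proteins, gave 3 of the higher loci, and 3 genes for HSC70 chaperones gave none. *HSP81-2* had 325, 737 and 534 CPM in cer7-gabi and 302 and 1361 CPM in cer7-sail, against 119.6 to 176 CPM (median 141) in *rst1* (log2 fold change 2.17, SE 0.289, adjusted p = 1.82e-05, edgeR). *HSP81-3* had 213 to 1034 CPM in *cer7* and 84.0 to 156 CPM in *rst1* (2.20, adjusted p = 0.000128), and the groups of both genes were apart. At *Hsp81.4* they overlapped (1.80, adjusted p = 0.00521), and that call was lost when any 1 of 7 libraries was left out. The 3 genes lie close together on chromosome 5 and between 51.9 and 57.8% of their 21-mers were unique, so reads may be shared among them. *HSC70-1* (0.35), *Hsp70-2* (0.42) and *AT3G09440* (0.45) did not pass the test.

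*S*-adenosylmethionine decarboxylases make the aminopropyl donor for polyamine synthesis. *AT5G15950* had 247, 171 and 611 CPM in cer7-gabi and 117 and 399.9 CPM in cer7-sail, against 22.4 to 76.1 CPM (median 39.5) in *rst1* (log2 fold change 2.88, SE 0.47, adjusted p = 0.00057, edgeR). Its counts are those of *AT5G15948* in every library, so these 2 of the 61 loci are a single measurement. *SAMDC* (*AT3G02470*, chromosome 3, 508886 to 511561, plus strand) was among the most abundant loci of both mutants, with 26985, 21317 and 51893 CPM in cer7-gabi and 15132 and 26804 CPM in cer7-sail, against 2349.7 to 14336 CPM (median 3193) in *rst1* and a mean of 192 CPM in the wild type. The groups did not overlap, but the highest *rst1* library came close, and the gene was not called (2.22, SE 0.521, adjusted p = 0.0173). It was called with the replicate number as a block (2.66, adjusted p = 0.00445) and without rst1-3 replicate 2 (2.68). *AT3G02468* had nearly the same counts as *SAMDC*.

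Class III HD-ZIP genes encode transcription factors that set the upper side of leaves and pattern the vasculature, and all 5 are cleaved under the guidance of miR166. *ARF10*, *ARF16* and *ARF17* encode auxin response factors targeted by miR160. The miRNAs are shown with their seed (bases 2 to 8) in capitals and the sites with capitals at the bases that differ from the perfect complement of the miRNA, some of which can still pair as G with U. They are shown because the members of each family carry almost the same site. Mature miRNA sequences are from RefSeq on TAIR10.1, and the sites lie in the coding sequence. Sites of the HD-ZIP III genes span an exon junction, and their coordinates include the intron.
miR160a-5p (chr2:16340282-16340302, plus strand): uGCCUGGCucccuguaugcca
*ARF10* site (chr2:12115741-12115761, plus strand): AggAatacagggagccaggca
*ARF16* site (chr4:14704141-14704161, minus strand): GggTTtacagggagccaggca
*ARF17* site (chr1:29274189-29274209, plus strand): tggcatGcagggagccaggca
miR166a-3p (chr2:19176241-19176261, plus strand): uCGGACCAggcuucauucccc
*REV* site (chr5:24398787-24398898, plus strand): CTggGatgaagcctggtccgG
*HB-8* site (chr4:15866872-15866974, minus strand): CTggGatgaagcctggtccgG
*PHB* site (chr2:14642530-14642666, minus strand): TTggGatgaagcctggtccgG
*PHV* site (chr1:10799330-10799445, minus strand): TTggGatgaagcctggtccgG
*ATHB-15* site (chr1:19412976-19413085, minus strand): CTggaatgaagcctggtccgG

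*REV* (*AT5G60690*, chromosome 5, 24396981 to 24402195, plus strand) was the only HD-ZIP III gene called. It had 4241, 3870.4 and 4794 CPM in cer7-gabi and 4023 and 4199 CPM in cer7-sail, against 1182 to 1971 CPM (median 1383) in *rst1* and a mean of 39.1 CPM in the wild type. The groups did not overlap, and rst1-3 replicate 2 was the highest *rst1* library, with the others at 1182 to 1458 CPM (log2 fold change 1.56, SE 0.135, adjusted p = 1.13e-09, edgeR). *REV* overlaps *AT5G60700* in the annotation, and whether counting used the strand is not given in the sources used here.

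The other members of the family gave smaller values. *PHB* had 4519.6, 4159 and 5421 CPM in cer7-gabi and 5243 and 4662 CPM in cer7-sail, against 2559 to 3622 CPM (median 3251) in *rst1*, with no overlap, and its log2 fold change of 0.62 (SE 0.133, adjusted p = 0.00318, edgeR) was below the fold threshold. *PHV* was at 1489 to 2253 CPM in *cer7* and 863 to 1434 CPM in *rst1* (0.46, adjusted p = 0.151). *HB-8* averaged 87.8 CPM in *cer7* and 83.9 CPM in *rst1* (0.04, adjusted p = 0.962), and *ATHB-15* averaged 452 CPM and 529 CPM in the same order (−0.22, adjusted p = 0.538). *REV* and *HB-8* carry the same 21 bases at the site, and so do *PHB* and *PHV*. Whether *REV* differed from its relatives in its response was not tested.

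A list of other miRNA targets was looked at next. Over all genes tested 2.09% were called higher and 0.24% lower, so few calls are to be had in a list of this size. Of 51 on the list 38 were tested, 0 were called higher and 1 lower, with a median log2 fold change of −0.10 and 15 of 38 positive. The lower one was *ARF10* (*AT2G28350*, chromosome 2, 12113889 to 12116957, plus strand), with 825, 729 and 804 CPM in cer7-gabi and 1127 and 983 CPM in cer7-sail, against 1586 to 2859.9 CPM (median 2289) in *rst1* (log2 fold change −1.31, SE 0.157, adjusted p = 5.8e-07, edgeR). Both mutants were far above the wild type, which averaged 33.1 CPM, by log2 fold changes of 4.73 in *cer7* and 6.04 in *rst1*. Its relatives with the same kind of site were not called: *ARF16* averaged 90.5 CPM in *cer7* and 148 CPM in *rst1* (−0.70, adjusted p = 0.0312), and *ARF17* averaged 140.3 CPM and 226 CPM in the same order (−0.69, adjusted p = 0.0318). At all 3 genes every *cer7* library was below every *rst1* library.

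Genes of other roles were also among the higher loci. *CYP71A20*, a cytochrome P450 gene, had 213, 207 and 259 CPM in cer7-gabi and 157 and 191 CPM in cer7-sail, against 12.0 to 45.0 CPM in *rst1* and a mean of 43.0 CPM in the wild type (log2 fold change 2.69, SE 0.263, adjusted p = 9.93e-09, edgeR). In *rst1* it did not pass the test against the wild type (log2 fold change −0.43). *AUX1*, the auxin influx carrier, had 224, 151 and 142 CPM in cer7-gabi and 133 and 447 CPM in cer7-sail, against 33.6 to 112 CPM in *rst1* (1.72, SE 0.324, adjusted p = 0.000932).

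A further group, put together after its values were seen, acts in transcription and mRNA metabolism. *CPL1*, a phosphatase of the C-terminal domain of RNA polymerase II, had 572, 780.2 and 589 CPM in cer7-gabi and 378 and 766 CPM in cer7-sail, against 171 to 325 CPM (median 212) in *rst1* (log2 fold change 1.42, adjusted p = 5.81e-06, edgeR). *RCF3*, a KH-domain RNA-binding protein that works with CPL1, was higher by 1.54 (adjusted p = 0.000257) and the related phosphatase gene *CPL3* by 1.47 (adjusted p = 0.00191). *CYCH;1*, the cyclin of the CDK-activating kinase (1.23), *AT5G09850* of the TFIIS family (1.08) and the DEAD-box helicase gene *AT2G45810* (1.13) were also called. The groups overlapped at *CPL3* and *CYCH;1* and not at the other 4. *CPL1*, *RCF3* and *AT2G45810* each overlap another gene in the annotation.

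Some of the larger differences were at genes without a known role. *AT5G57123* (chromosome 5, 23126874 to 23127724, minus strand) had 822, 6226 and 1568 CPM in cer7-gabi and 4317 and 3701 CPM in cer7-sail, against 111 to 389 CPM (median 181) in *rst1* (log2 fold change 3.99, SE 0.442, adjusted p = 1.55e-05, edgeR). *AT5G21125* (chromosome 5, 7185048 to 7185428, minus strand) had 173, 87.0 and 112 CPM in cer7-gabi and 153 and 162 CPM in cer7-sail, against 0 to 5.60 CPM (median 1.76) in *rst1*. It stood apart from the other higher loci because *rst1* was the exception among the genotypes: *ripr* averaged 138 CPM, as *cer7* did at 137 CPM, and the wild-type libraries were at 15.3, 9.57 and 61.7 CPM, a spread carried by replicate 3. Its log2 fold change of *cer7* over *rst1* was 5.76 (SE 0.506, adjusted p = 1.13e-09). In counts, *AT5G21125* had 211 in *cer7* and 3 in *rst1*, a ratio of levels of 64.6 (exact 95% interval 21.8 to 316).

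**Figure D3:**
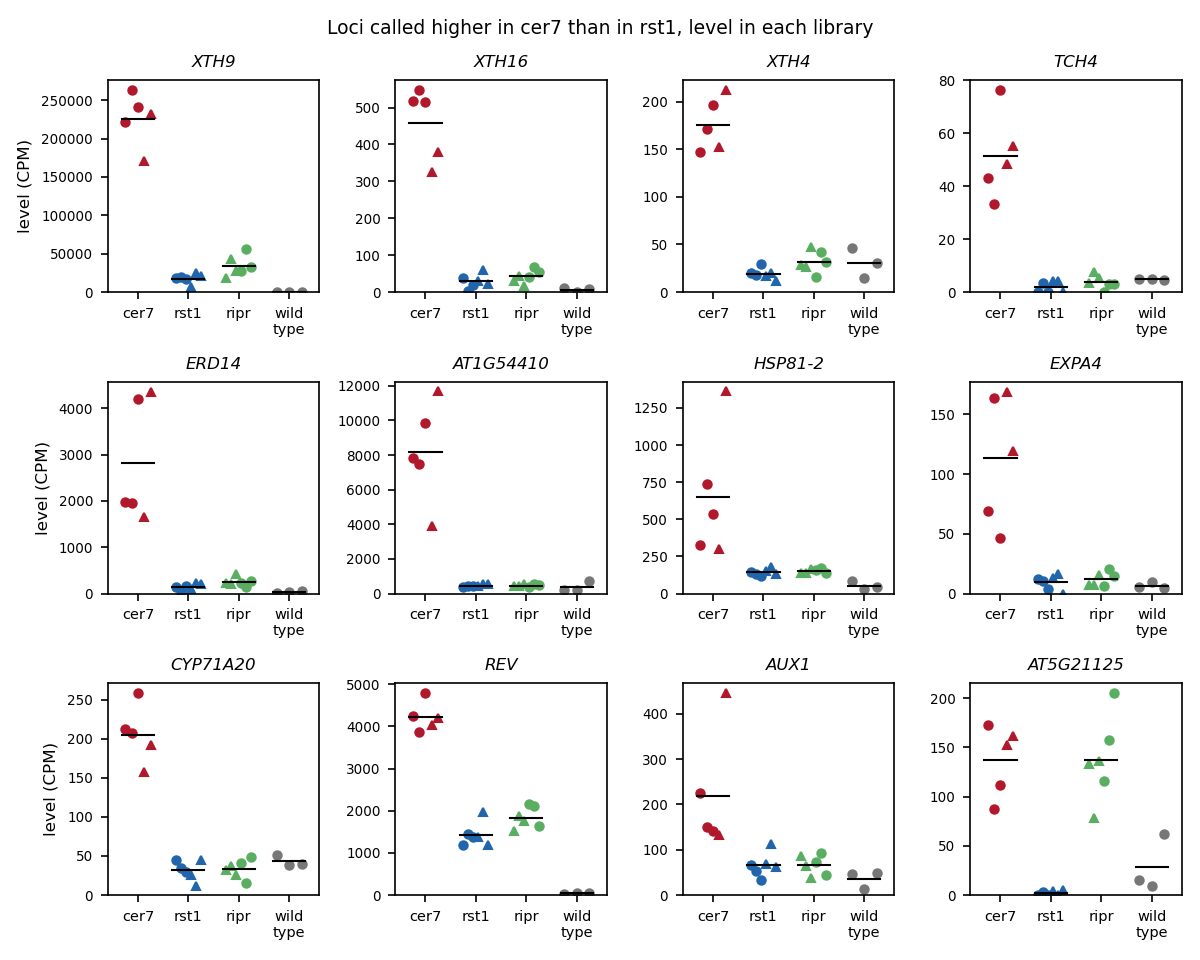
Level in CPM (y axis, linear, from 0) of 12 loci called higher in *cer7*, in each *cer7*, *rst1*, *ripr* and wild-type library (x axis); circles are cer7-gabi, rst1-2, riprT and wild-type libraries, triangles cer7-sail, rst1-3 and riprC, and black lines are means. No *cer7* point lies at or below an *rst1* point in these panels, and *ripr* sits near *rst1* except at *AT5G21125*. At *XTH4*, *TCH4*, *AT1G54410*, *CYP71A20* and *AT5G21125* no *rst1* point lies above the highest wild-type point.

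Of the 7 lower loci, *HAK5* had the strongest difference. *HAK5* (*AT4G13420*, chromosome 4, 7796782 to 7802251, minus strand) encodes the high-affinity potassium transporter of the root. It had 270.3, 220.0 and 207 CPM in cer7-gabi and 269.6 and 285 CPM in cer7-sail, against 2029 to 2644 CPM (median 2132) in *rst1* and a mean of 2303 CPM in the wild type. Both *cer7* alleles were thus well below every other genotype, with *ripr* at a mean of 1454 CPM. The log2 fold change was −3.16 (SE 0.14, adjusted p = 3e-17, edgeR) over *rst1* and −3.20 over the wild type, so this locus lost small RNAs in *cer7* where *ARF10* gained fewer.

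At the other 5 *cer7* averaged below the wild type too. *AT2G05160*, a CCCH zinc finger gene, had 37.4, 15.3 and 13.6 CPM in cer7-gabi and 36.2 and 38.3 CPM in cer7-sail, against 44.8 to 204 CPM (median 119) in *rst1* and a mean of 46.6 CPM in the wild type (log2 fold change −2.12, adjusted p = 0.000651, edgeR). Its levels were 204, 144 and 164 CPM in rst1-2 and 93.8, 52.1 and 44.8 CPM in rst1-3. The call was lost with rst1-3 alone, with cer7-sail alone and with glmTreat. *AT4G10613*, annotated as related to reverse transcriptases, had 227 to 282 CPM in *cer7* and 377 to 683 CPM in *rst1* (−1.12, adjusted p = 1.82e-05). *RABG1*, a Rab GTPase gene, had 34.0 to 63.3 CPM in *cer7* and 72.8 to 127 CPM in *rst1* (−1.16, adjusted p = 0.00243). At these 3 genes the groups did not overlap. They did overlap at *AT1G61320* (10.9 to 38.3 CPM in *cer7* and 33.6 to 127 CPM in *rst1*, −1.76, adjusted p = 0.00186) and at *MPC* (48.6 to 177 CPM in *cer7* and 139 to 516 CPM in *rst1*, −1.54, adjusted p = 0.00842). *RABG1* was lost without cer7-gabi replicate 2 or cer7-sail replicate 3, *AT1G61320* without rst1-2 replicate 3, and *MPC* when any 1 of 7 libraries was left out or with the replicate block (−1.49, adjusted p = 0.0224).

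**Figure D4:**
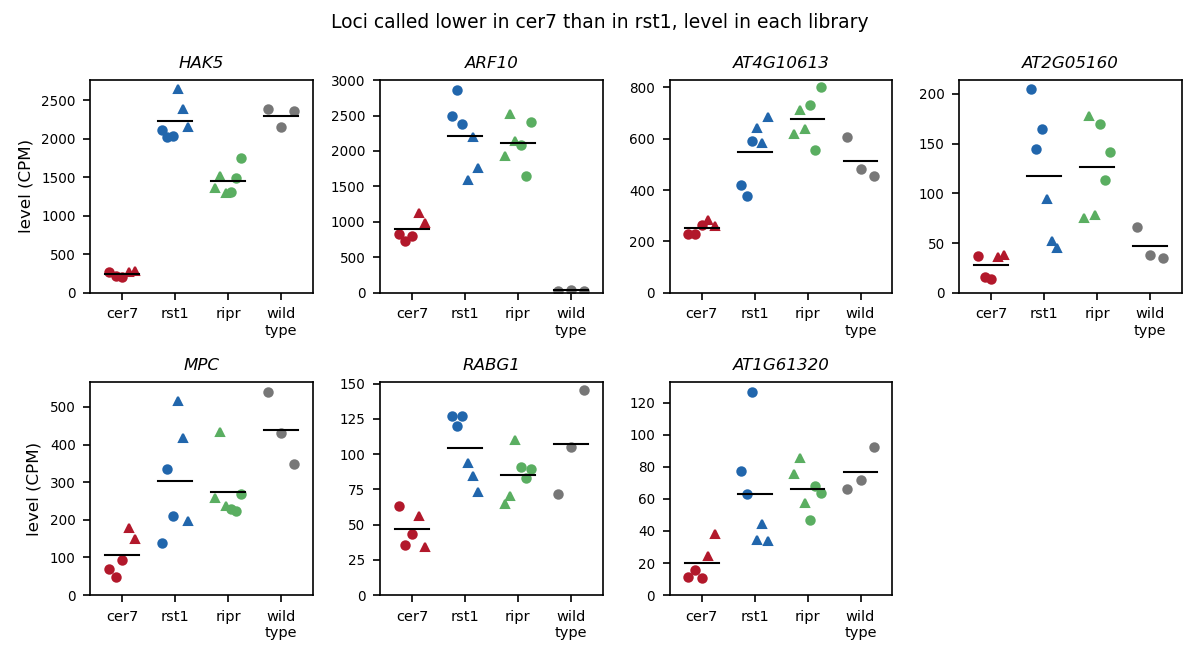
Level in CPM (y axis, linear, from 0) of the 7 loci called lower in *cer7*, in each *cer7*, *rst1*, *ripr* and wild-type library (x axis); circles are cer7-gabi, rst1-2, riprT and wild-type libraries, triangles cer7-sail, rst1-3 and riprC, and black lines are means. *ARF10* is the only panel in which the wild type is near 0, and at *HAK5* all 5 *cer7* points lie between 207 and 285 CPM.

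Some loci with high levels in both mutants were not called. Of these, *CRF2* and *AT5G54940* were named because they were abundant and alike in both mutants. Their small differences follow from that choice, so they cannot show whether level and difference are related. *CER3* is the wax synthesis gene whose silencing leaves *cer7* and *rst1* stems with less wax. It had 16583, 32982 and 27974 CPM in cer7-gabi and 9889.6 and 34469.7 CPM in cer7-sail, against 9039.8 to 15562 CPM (median 12937) in *rst1*. The groups overlapped only through cer7-sail replicate 1, and every other *cer7* library lay above every *rst1* library. The gene was not called (log2 fold change 1.00, SE 0.31, adjusted p = 0.0765, edgeR), although its level tended to be higher in *cer7*. None of the 10 wax synthesis genes tested, of 17 on the list, was called, and their median was 0.39. *CRF2*, a cytokinin response factor gene, averaged 45952 CPM in *cer7* and 36318 CPM in *rst1* against 152 CPM in the wild type (0.34, SE 0.165, adjusted p = 0.263). *AT5G54940*, of the SUI1 family of translation initiation factors, averaged 16298 CPM in *cer7* and 17823 CPM in *rst1* against 90.9 CPM (−0.13, SE 0.132, adjusted p = 0.646).

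The same choice gave *HAM1*, *AGO1* and *AT2G39850*, with small RNAs raised in both mutants. The GRAS gene *HAM1* averaged 3926 CPM in *cer7* and 3775 CPM in *rst1* (0.06, adjusted p = 0.893). *AGO1*, which encodes the main effector of miRNAs and is itself a miRNA target, averaged 1501 CPM in *cer7* and 1388 CPM in *rst1* (0.11, adjusted p = 0.782), and the subtilisin-like gene *AT2G39850* 1888 CPM in *cer7* and 1522 CPM in *rst1* (0.31, adjusted p = 0.491). A miss of the threshold does not show that the levels were equal. *MT2B*, a metallothionein gene, averaged 1266 CPM in *cer7* and 773 CPM in *rst1* (0.71, adjusted p = 0.0401, edgeR), and none of the 5 metallothionein genes tested was called.

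Whole gene classes that can form siRNAs were compared by their counts. With 2.09% of all genes tested called higher and 0.24% lower, 0 calls in lists of these sizes say little. Of 18 light-harvesting genes tested 0 were called, with a median of 0.00. Of 82 ribosomal protein genes 0 were called, with a median of 0.29 and 67 positive. Of 33 NLR immune receptor genes 0 were called, with a median of −0.36 and 2 positive, and of 20 PPR genes, which encode organelle RNA-binding proteins, 0 were called, with a median of −0.41 and 4 positive. Among genes of the silencing machinery 0 of 5 were called, with a median of 0.11, and among peptide uORF genes 0 of 7, with a median of 0.51. Over all genes the unadjusted p was below 0.05 at 557.

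**Figure D5:**
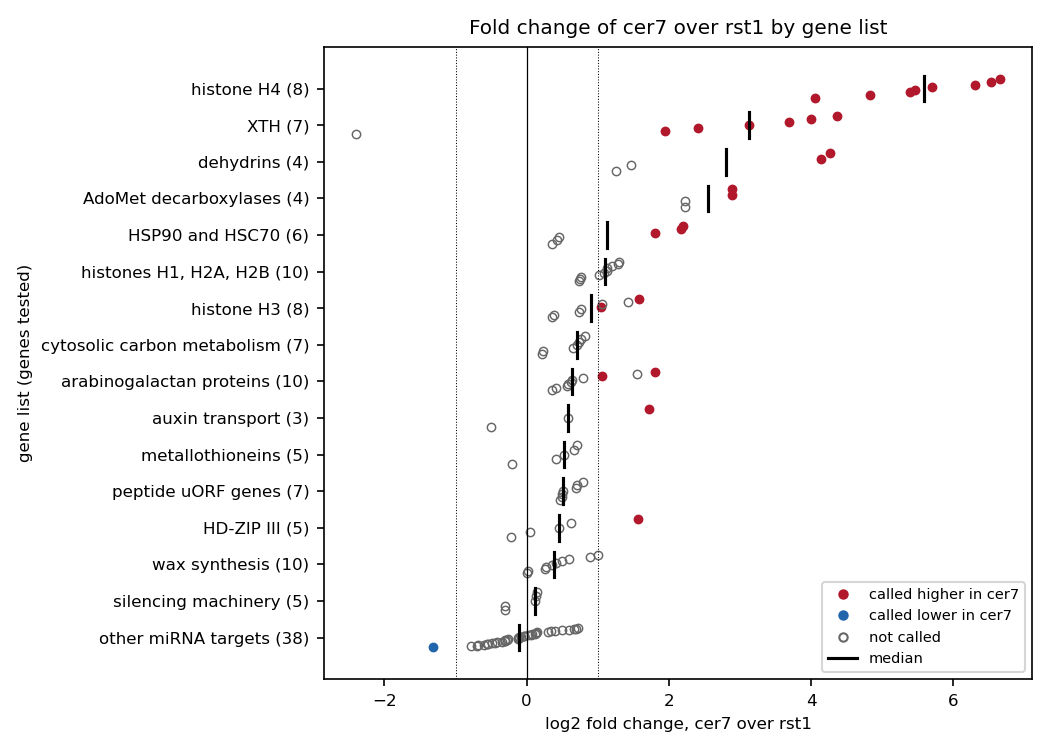
Log2 fold change of *cer7* over *rst1* (x axis) of the tested members of 16 gene lists (y axis, number tested in brackets); filled red points were called higher in *cer7*, the filled blue point lower, open points were not called, bars are list medians and dotted lines mark −1 and 1. Histone H4, at a median of 5.59, and the XTH family, at 3.12, stand furthest to the right, and other miRNA targets spread around −0.10.

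Lists that the study drew from these same libraries described the loci further, though they are not independent of them. Of 324 tested loci that the study lists as raised in *cer7*, 58 were higher and 1 lower in the direct comparison, with a median of 0.59. Among them, those marked as phased siRNA loci had 13 of 30 higher and a median of 1.09, those marked from decapping mutants 12 of 34 and 0.94, those from *xrn4 ski2* plants 9 of 47 and 0.57, those from *ski2* plants 5 of 19 and 0.47, and those marked as miRNA targets 6 of 77 and 0.34. These marks overlap, and the differences between them were not tested.

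The 61 loci were spread over all chromosomes, 16, 10, 5, 10 and 19 of them on chromosomes 1 to 5. Of the 60 with a transcript model, 22 (36.7%) had a single exon, against 564 of all genes tested (20.6%), and the median transcript was 1353.5 bases long, against 1598 bases. Every called histone H4 and H3 gene except *AT1G07660* had a single exon and is part of that count. The share without the histone genes was not worked out. The median GC content was 40.4%, against 41.9% over all genes tested, the median share of unique 21-mers 99.0%, against 97.8%, and 10 of the 61 (16.4%) overlapped another gene, against 667 of 2916 (22.9%).

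Calls near the threshold were less firm than the leading ones. Just inside it lay *QUA3* and *AT1G09310*, a DUF538 gene that overlaps *AT1G09320* in the annotation. *AT1G09310* had 112, 309.5 and 125 CPM in cer7-gabi and 274 and 323 CPM in cer7-sail, against 24.0 to 94.0 CPM in *rst1* (log2 fold change 1.80, adjusted p = 0.00898, edgeR), and with the replicate block its adjusted p was 0.0197. It was lost when any 1 of 9 libraries was left out. *AT5G18600*, a thioredoxin superfamily gene (2.03, adjusted p = 0.00842), was also lost with the block. Just outside lay *AGP1* (1.55, adjusted p = 0.0101), which was called with the block (1.62, adjusted p = 0.00571), and *AT4G15700*, another thioredoxin superfamily gene. *AT4G15700* had 94.9, 17.9 and 744 CPM in cer7-gabi and 4.02 and 128 CPM in cer7-sail, against 0 to 11.2 CPM in *rst1* (5.46, adjusted p = 0.0101), so that 1 library held most of its small RNAs.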

How the data were processed

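Small RNAs were sequenced from 20 libraries of flower buds. The authors demultiplexed reads with bcl2fastq (2.17.1.14), trimmed them with cutadapt (1.18), aligned them without mismatches to TAIR10 with ShortStack in unique mode and deposited raw counts of 21 and 22 nt reads per gene, 1 column per library (0 columns were left out). How reads were counted (tool, strand, overlapping genes) is not given in the sources used here. The deposited table has a single length class on genes, so its totals are not library depths.

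The deposited counts were analysed in R (4.3.3) with edgeR (4.0.16) and limma (3.58.1). The filterByExpr filter (count of 10, total of 15) kept 2916 genes, which were scaled by TMM and fitted with glmQLFit (robust) in 4 groups over 20 libraries. The contrast was *cer7* minus *rst1*, and alleles were compared in a fit of 7 groups. Of 27415 identifiers, 26718 were matched to the TAIR10.1 annotation, the source of positions and names, and 1918 had no counts. Gene lists, members and tests were chosen with earlier results of these data known. The procedure was tested on simulated data.

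The labels number replicates 1, 2 and 3 in both mutants. The deviations of *cer7* and *rst1* libraries of the same number from their group means had correlations of 0.144 to 0.323, all over the limit of 0.1. Of the pairs of different numbers, *cer7* replicate 3 with *rst1* replicate 2 also passed, at 0.106, and the others were at −0.24 to 0.0328. The numbers were taken to pair the libraries, though weakly, and a fit with the replicate number as a block was run. Unless the block is named, p-values come from fits without it. No label ties a number to a date. Other alternatives were DESeq2 (1.42.0), other scalings, filters and thresholds, single alleles, fewer groups, and leaving out each library.

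The rule for named genes took the 10 largest folds among higher loci without overlap. It took the 10 higher loci of smallest adjusted p and up to 10 lower loci. A set picked by hand was *CER3*, *XTH9*, *CRF2*, *AT5G54940*, *ERD14*, *AUX1*, *AT1G09310*, *CER7* and *RST1*. The main text of the study names only *CER3*, *CER7* and *RST1* of these. Called members of 7 lists were added, with up to 3 uncalled ones each. The last were the 8 most abundant loci alike in both mutants (log2 fold change within 0.5 of 0), and 2 loci on each side of the threshold. *EXO*, *AGP21*, *AGP15*, *GASA6*, *CPL1*, *CPL3*, *RCF3*, *CYCH;1*, *AT5G09850*, *AT2G45810*, *AT5G18600*, the histone H3 genes, *ARF16*, *ARF17* and *AT1G14780* were chosen after their values were seen. A result that the rule would name is not reported here.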

Additional observations from a re-analysis of the deposited data

Results flagged for a closer look

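Outlying libraries were looked for in 122 groups, the *cer7* and *rst1* libraries of 61 named genes, and 4 were found. Chance flags about 1 in 20 such groups. In *PHV*, cer7-sail replicate 1 was at 2253 CPM, with the other *cer7* libraries at 1489 to 1672 CPM. In *AT4G15700*, cer7-gabi replicate 3 was at 744 CPM, with the others at 4.02 to 128 CPM. In *MT2B*, cer7-sail replicate 3 was at 2229 CPM, with the others at 819 to 1172 CPM. In *REV*, rst1-3 replicate 2 was at 1971 CPM, with the other *rst1* libraries at 1182 to 1458 CPM. The alleles of a mutant differed at 1 of the named genes: the log2 fold change of rst1-2 over rst1-3 at *XTH26* was 2.89 (adjusted p = 0.000903, edgeR).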

How the results depend on the processing

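Of 36 named calls, 13 held under every alternative that tested them, out of 27 (among them *XTH9*, *XTH16*, *XTH4*, *TCH4*, *EXPA4*, *ERD14*, *AT1G54410*, *CYP71A20*, *REV*, *HSP81-2*, *AT5G21125* and *HAK5*, of which *TCH4* was tested in 26) and 29 with any 1 library left out. The count of loci higher in *cer7*, 61, was 24 with glmTreat, 96 at an adjusted p below 0.05, 39 with the *cer7* and *rst1* libraries alone in the fit, 25 with rst1-3 alone, and 47 to 72 with 1 library left out. The count of lower loci, 7, was 49 with library totals alone, 1 with glmTreat, 18 at an adjusted p below 0.05, 18 with each allele its own group, 14 with cer7-gabi alone, 15 with cer7-sail alone, 26 with rst1-2 alone, and 6 to 10 with 1 library left out. DESeq2 called 74 and 10, among them all 61 and all 7. A fit without the robust estimate of the spread, added after seeing the data, called 64 and 9. With no filter 25497 genes were fitted, 70 and 10 were called, and the median of all genes was 0.13. The cause of these changes was not tested.

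With the replicate number as a block, 64 loci were higher and 7 lower, among them 59 of the 61 and 6 of the 7. Apart from *AT1G09310*, *AT5G18600*, *MPC*, *SAMDC* with *AT3G02468*, and *AGP1*, the block changed the call of no named gene.

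Directions turned only at uncalled genes near 0. With library totals alone, *AGO1* was at −0.22, *AT2G39850* at −0.0159, *HAM1* at −0.25 and *AT4G17410* at −0.0449. *HAM1* was at −0.0292 with cer7-gabi alone, −0.0826 with rst1-2 alone, and −0.0480 (without rst1-3 replicate 1) to 0.109 with 1 library left out. *CRF2* was at −0.0097 with rst1-2 alone and *AT5G54940* at 0.0743 with rst1-3 alone. *AGO1* was at −0.0044 (without cer7-gabi replicate 2) to 0.224 with 1 library left out.

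*TCH4* and *AT5G21125* had 3 counts each in *rst1*, and folds of loci this low are imprecise. Counts of near-identical copies, such as histone H4 and HSP90 genes, and of overlapping genes are uncertain.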

Other observations

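The lowest value of the comparison belonged to *AT1G14780*, which was not called (adjusted p = 0.0130, edgeR). It was at 0 CPM in all 5 *cer7* libraries, against 168, 398 and 673 CPM in the rst1-2 libraries and 59.7, 24.0 and 33.6 CPM in the rst1-3 libraries. Its *rst1* alleles differed from each other (log2 fold change of rst1-2 over rst1-3 3.38, adjusted p = 0.00156).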
